A study of Mus musculus with 8 samples.

Results

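CD4 effector memory T cells (Tem) after stimulation are the cells that the study's annotation places in the CD4 class and labels Tem, with trailing numbers removed, in the stimulated libraries. There were 2654 of them among 6832 stimulated cells and 12846 cells in all: 319 and 373 in WT replicates 1 and 2, and 901 and 1061 in SDHA-KO replicates 1 and 2. The SDHA-KO mice were Sdha fl/fl CD4-Cre, in which Cre is switched on in thymocytes and acts in the CD4 and the CD8 lineage alike. The labels give the WT mice only as WT. In other experiments of the study that name stands for Sdha fl/fl mice without Cre. Where the paper introduces the sequencing of WT cells, it names a mouse strain listed as purchased in its methods, with no mention of floxed Sdha. Whether the WT libraries came from floxed mice is therefore unclear. The part of a possible difference in mouse line between the genotypes was not tested. Splenic T cells were enriched with magnetic beads and kept for 48 hours either alone (unstimulated) or with soluble antibodies to CD3 (5 μg/mL) and CD28 (2.5 μg/mL), dead cells were removed, and 10x Genomics 3′ libraries were made, 2 for each of the 4 groups. The labels do not say whether replicates were separate mice, so the p values measure the spread between these libraries, which may be technical.

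Effector memory T cells are antigen-experienced cells that patrol tissues and release cytokines soon after their T cell receptor (TCR) is engaged, whereas central memory T cells (Tcm) keep lymph node homing receptors such as CCR7. Activation moves T cells from slow oxidative metabolism to rapid glucose uptake, glycolysis, amino acid and sterol synthesis, and growth. SDHA is the catalytic subunit of succinate dehydrogenase, the only enzyme that belongs both to the tricarboxylic acid (TCA) cycle and, as complex II, to the electron transport chain. Without it succinate cannot be oxidized to fumarate.

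The label was checked against its markers before any comparison. Each captured mRNA carries a unique molecular identifier (UMI), and levels are given as counts-per-million values of the summed cells of a library (CPM), unscaled where cell type markers are described and otherwise TMM-scaled, as explained further on. Cd4, Il2ra (the IL-2 receptor α chain), Tnfrsf4 (the costimulatory receptor OX40), and Cd44 (an adhesion receptor of activated and memory cells) were all detected, and together they made up 1247 and 1181 CPM in WT and 1352 and 1358 CPM in SDHA-KO Tem cells. The same 4 genes made up 2321 and 2390 CPM in WT and 3214 and 3383 CPM in SDHA-KO cells labelled CD4 Tcm in the same libraries. So the markers were present but did not set the Tem label apart from the Tcm label, and Ccr7 was not absent from Tem cells either. The labels differed in depth and in mitochondrial share. Tem cells had median totals of 60983 and 61520 UMIs in WT and 28229 and 28380 UMIs in SDHA-KO, against 10849 and 10875 in WT and 6872 and 7418 in SDHA-KO Tcm cells. Mitochondrially encoded genes took a median of 2.90% and 2.76% of the UMIs of a WT Tem cell and 1.32% and 1.31% of those of an SDHA-KO Tem cell, against 21.8% and 20.6% in WT and 11.2% and 11.1% in SDHA-KO Tcm cells. The name Tem is therefore used as the annotation's label, and Tem against Tcm was not tested, because the annotation was drawn from the same counts.

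Tem cells took a larger share of the CD4 cells in SDHA-KO than in WT. They were 37.9% ± 1.01 (SD, n = 2) of CD4 cells in WT and 80.9% ± 2.40 (n = 2) in SDHA-KO, and the libraries did not overlap, with WT at 37.1% and 38.6% and SDHA-KO at 79.2% and 82.6%. An exact permutation test of 2 libraries against 2 (two-sided) gives p = 0.33 at the least, and no share was tested. The summed Tem cells held 18495516 and 21627848 UMIs in WT and 26150271 and 32046759 UMIs in SDHA-KO. In sums over cells, fewer cells of a kind and less RNA per cell cannot be told apart. Of the 2654 cells, 3 carried a barcode that also occurs in another stimulated library.

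Markers of other cell types were low but not absent, and some moved with the genotype. Cells with at least 1 UMI of Cd8a were 17.6% and 16.1% of WT and 8.21% and 7.35% of SDHA-KO Tem cells, but WT cells were deeper. After each cell was thinned to 5000 UMIs these shares were 2.22% and 3.31% in WT and 3.97% and 4.04% in SDHA-KO, and Cd8a was at 7.84 and 11.6 CPM in WT and 14.99 and 16.01 CPM in SDHA-KO. The 6 measured γδ T cell genes, which include the δ chain gene Trdc, summed to 4.596 and 6.52 CPM in WT and 22.6 and 15.6 CPM in SDHA-KO, with 5 of them detected in WT replicate 1 and all 6 in each other library. The 6 NK and innate-like genes summed to 7.95 and 0.971 CPM in WT and 20.6 and 8.52 CPM in SDHA-KO, but Ncr1 and Klrb1c were at 0 in both WT libraries, most of the SDHA-KO sum was Fcer1g (11.4 and 5.09 CPM), and most of that of WT replicate 1 was Zbtb16 (7.35 CPM). B cell genes reached 133 and 33.9 CPM in WT and 80.0 and 67.4 CPM in SDHA-KO, mainly Ighm, and erythroid and platelet genes stayed between 0.139 and 2.87 CPM. Myeloid genes summed to 80.2 and 76.7 CPM in WT and 143 and 160 CPM in SDHA-KO, nearly all of it Cst3, while the defining genes Lyz2, S100a8, and S100a9 were at 0 in all 4 libraries. The 4 regulatory T cell genes summed to 38.2 and 29.2 CPM in WT and 101 and 80.6 CPM in SDHA-KO, a difference that lay in Ikzf2 (24.5 and 19.3 CPM against 87.0 and 67.7 CPM), while the defining gene Foxp3 was at 2.11 and 0.647 CPM against 2.49 and 2.65 CPM. The part of these markers in the differences below was not tested, except where values without Tem7, the sub-label that held most of the innate-like signal, are given.

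A large part of the transcriptome of these cells differed between SDHA-KO and WT. The comparison is made within a label whose share of CD4 cells, and whose make-up of sub-labels, differed between the genotypes. The part of that selection in the differences was not tested. Differences were tested with the quasi-likelihood test of edgeR on UMIs summed per library, with libraries scaled by the trimmed mean of M values (TMM), and a gene was called when its Benjamini-Hochberg adjusted p was under 0.05. Of 13323 genes tested, 3527 (26.5%) were called, of which 1709 (12.8% of all tested) were higher and 1818 (13.6%) were lower in SDHA-KO, and the median log2 difference of all genes was 0.01. Without composition normalization the split turned to 76.5% of calls higher, with an all-gene median of 0.20. Fewer genes were called when WT replicate 1 or 2 was left out, but fewer were also tested, namely 9278 and 9283. Sdha itself was at 88.8 and 87.5 CPM in WT against 27.7 and 26.7 CPM in SDHA-KO, so all SDHA-KO libraries lay below all WT libraries (log2 difference -1.70 ± 0.0998 SE, adjusted p = 8.2e-08). These are 3′ counts, and the sources used here do not place them relative to the deleted part of the gene. The other subunits, Sdhb, Sdhc, and Sdhd, did not pass the test, with log2 differences of 0.12, 0.03, and -0.06. Over all genes tested, both SDHA-KO libraries lay above both WT libraries for 35.2% and below both for 34.0%.

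The 8 called genes that fell most, among those with a mean of at least 20 CPM whose groups did not overlap, came largely from glucose and oxygen metabolism and from metal handling. Mt1, a metallothionein that binds zinc and copper, was at 382 and 549 CPM in WT against 42.8 and 16.98 CPM in SDHA-KO (log2 difference -3.97 ± 0.314, adjusted p = 1.0e-06), and its neighbour Mt2 fell by 2.88 on the log2 scale. Slc2a3, the glucose transporter GLUT3, was at 269 and 290 CPM in WT against 41.02 and 31.4 CPM in SDHA-KO (-2.95 ± 0.132, adjusted p = 1.3e-08). Both WT libraries lay well above both SDHA-KO libraries for every one of these genes. Egln3, a prolyl hydroxylase that marks HIF-1α for destruction and is itself switched on by HIF-1, was at 172 and 190 CPM in WT against 26.3 and 17.6 CPM in SDHA-KO (-3.05 ± 0.160, adjusted p = 4.0e-08). Bnip3, a mitophagy receptor, was at 167 and 189 CPM against 31.5 and 14.0 CPM (-2.98 ± 0.256, adjusted p = 2.2e-06). Aldoc (aldolase C), Mgarp (a mitochondrial protein), and Nrn1 (neuritin) had log2 differences of -3.50, -3.13, and -3.44.

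The 8 called genes that rose most, among those of at least 20 CPM with groups that did not overlap, were of 2 kinds. These are taken apart below by the cells that carried them. In one kind the UMIs were spread over many cells. Tnip3, an inhibitor of NF-κB signaling, was at 10.1 and 13.6 CPM in WT against 404 and 315 CPM in SDHA-KO (log2 difference 4.92 ± 0.172, adjusted p = 4.4e-09). Serpine2, a secreted protease inhibitor, was at 8.17 and 7.64 CPM against 132 and 143 CPM (4.12 ± 0.125, adjusted p = 8.8e-09). Every SDHA-KO library stood more than 10-fold above every WT library for these genes. Dnm3 (dynamin 3), Phlda3 (a p53 target that restrains Akt), and Ms4a4c rose by 5.51, 3.06, and 3.06 on the log2 scale. The other kind comprised Ifng, Gzma, and Il17a, for which the SDHA-KO replicates differed from each other by 2-fold or more.

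**Figure D1:**
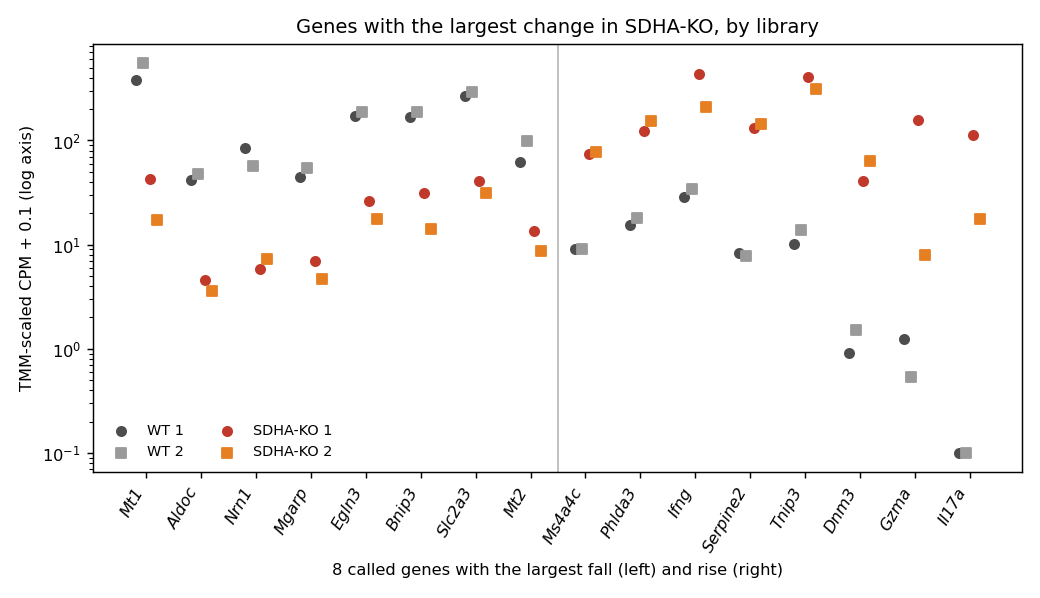
TMM-scaled counts-per-million values (CPM) plus 0.1 (log axis) in stimulated CD4 Tem cells for the 8 called genes with the largest fall (left of the grey line) and the largest rise (right), with 1 point for each of the 2 WT and 2 SDHA-KO libraries. The groups do not overlap for any of the 16 genes, because the naming rule asks for that, and the SDHA-KO replicates of Gzma and Il17a stand far apart (158 and 7.84 CPM, and 114 and 17.7 CPM).

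Glycolysis fell almost as a whole. Of its 17 genes, 16 were called lower and 1 was called higher, with a median log2 difference of -1.14 against 0.01 for all genes. Gapdh, whose enzyme makes the first NADH of the pathway, was at 6594 and 7033 CPM in WT against 2709 and 2376 CPM in SDHA-KO (-1.42), Pgk1 at 1656 and 1741 CPM against 557 and 440 CPM (-1.77), and Eno1 at 1404 and 1521 CPM against 464 and 364 CPM (-1.82). Ldha, the lactate dehydrogenase subunit that favors lactate formation, fell by 0.85 on the log2 scale. The exception was Ldhb, the subunit that favors lactate oxidation, which was at 41.03 and 42.4 CPM in WT against 73.8 and 89.5 CPM in SDHA-KO (0.97 ± 0.167, adjusted p = 0.00083). Of 6 glucose and lactate transport genes 5 were called lower, among them Slc2a1 (GLUT1, -1.40) and Slc16a3 (the lactate exporter MCT4, -1.67).

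Targets of HIF-1, the transcription factor that adapts cells to low oxygen and drives glycolytic genes in activated T cells, fell while its own transcript rose. Of 17 genes in the list, 15 were called lower and 1 higher, with a median of -1.80. The gene that rose was Hif1a, the oxygen-regulated subunit, at 205 and 226 CPM in WT against 454 and 315 CPM in SDHA-KO (0.83 ± 0.138, adjusted p = 0.00062). Among the targets, Egln1 (the main oxygen-sensing prolyl hydroxylase) was at 269 and 260 CPM against 84.1 and 67.9 CPM (-1.80), P4ha2 (a collagen prolyl hydroxylase) at 22.0 and 20.6 CPM against 2.90 and 1.82 CPM (-3.18), and Vegfa at 16.9 and 21.7 CPM against 6.75 and 4.25 CPM (-1.82). Both SDHA-KO libraries lay above both WT libraries for Hif1a and below both for these targets. The list and the glycolysis list name overlapping biology, since most glycolytic genes are also known HIF-1 targets.

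Promoters of these groups were read from RefSeq (GRCm38.p6, the 250 bases before each gene's start) because their members moved together. The core of the hypoxia response element, ACGTG on either strand, was present in 16.6% of 32851 single promoters. Counted by gene, with any promoter of the gene holding it, the share was 25.3% of the genes tested. It was 10 of the 15 genes with a promoter in the HIF-1 list (66.7%) and 8 of the 17 for glycolysis (47.1%). The related core GCGTG was found for 49.6% of the genes tested, for 10 of 15 in the HIF-1 list (66.7%), and for 11 of 17 in glycolysis (64.7%). The sequences below are given for 3 genes that fell, with ACGTG or its reverse complement CACGT in capitals, from chr12:54204079-54204123 on the minus strand for Egln3, chr7:138909589-138909634 on the minus strand for Bnip3, and chr7:46845639-46845794 on the plus strand for Ldha. Bnip3 and Ldha carry CACGTG, in which both strands hold the core at once, and this palindrome is also the E-box that MYC and other factors bind.
Egln3: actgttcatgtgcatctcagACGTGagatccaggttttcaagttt
Bnip3: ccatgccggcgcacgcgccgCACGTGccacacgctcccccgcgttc
Ldha: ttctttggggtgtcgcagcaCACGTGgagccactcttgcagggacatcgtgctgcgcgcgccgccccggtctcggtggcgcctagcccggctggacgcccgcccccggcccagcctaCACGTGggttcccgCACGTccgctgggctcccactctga
Ldha held 5 matches and Egln3 1, although Egln3 fell further (-3.05 against -0.85), and a match is a description of the letters, not of a bound factor.

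Genes of the integrated stress response, the program in which ATF4 raises amino acid synthesis and import, had a median of -2.16. The median was -1.20 with the sub-labels weighted equally, a setting that also left out composition normalization and added 1 before the log. It was -0.64 with cells thinned to 5000 UMIs, where only 9 members were tested and 5 called lower. Its size thus depended on the setting. Of 15 tested members (16 listed), 13 were called lower and 1 higher. Atf4 itself was at 207 and 183 CPM in WT against 125 and 111 CPM in SDHA-KO (-0.73 ± 0.0993, adjusted p = 0.00013). Its target Asns, asparagine synthetase, was at 127 and 99.2 CPM against 21.1 and 16.0 CPM (-2.61 ± 0.177, adjusted p = 2.6e-07). Vldlr, a lipoprotein receptor, was at 13.1 and 13.5 CPM against 0.392 and 0.224 CPM (-5.42 ± 0.317, adjusted p = 3.9e-07). Only Sesn2 (sestrin 2) was called higher (0.67), a call that was lost when WT replicate 2 or SDHA-KO replicate 1 was left out (adjusted p = 0.14 and 0.057). Chac1, which breaks down glutathione, was at 6.85 and 7.37 CPM in WT against 1.45 and 1.70 CPM in SDHA-KO (-2.16 ± 0.285, adjusted p = 0.00022). Its promoter holds the C/EBP-ATF response element TGATGCAA, here on the other strand as the TTGCATCA in capitals, at chr2:119351029-119351076 on the plus strand. The element was found for 4 of the 15 genes of this list with a promoter (26.7%), namely Chac1, Slc7a11, Vldlr, and Nupr1. It was found for 0.637% of all genes tested with a promoter and in 0.791% of all single promoters.
Chac1: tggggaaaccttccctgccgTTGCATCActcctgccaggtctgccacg
In the neighbouring list of serine, one-carbon, aspartate, and pyrimidine synthesis, 11 of 19 genes were called lower and 3 higher. Phgdh, the first enzyme of serine synthesis (-0.98), and Aldh1l2, a mitochondrial folate enzyme (-3.44), fell, whereas Cad, which starts pyrimidine synthesis, rose (0.62). Of 10 amino acid transporters, 6 were called lower, among them Slc7a5 (the leucine transporter LAT1, -1.01), and 1 higher, Slc7a1 (0.34), whose call was lost without any 1 of the 4 stimulated libraries (adjusted p from 0.073 to 0.21).

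Every one of the 26 sterol and fatty acid synthesis genes was called lower, with a median of -1.58. Hmgcs1, the synthase that opens the mevalonate pathway, was at 142 and 142 CPM in WT against 29.1 and 30.5 CPM in SDHA-KO (-2.25 ± 0.0967, adjusted p = 1.1e-08). The largest fall was that of Scd1, the stearoyl-CoA desaturase, at 27.7 and 30.1 CPM in WT and 1.06 and 0.480 CPM in SDHA-KO (-5.26 ± 0.257, adjusted p = 9.1e-08). The smallest was that of Fasn, fatty acid synthase (-0.38), which did not pass when either WT library or the first SDHA-KO library was left out (adjusted p = 0.11, 0.17, and 0.056). Both SDHA-KO libraries lay below both WT libraries for all 26, as they did for 34.0% of all genes tested. The sterol response sequence TCACCCCA was found for 2 of the 17 genes of the list with a promoter, Hmgcs1 and Srebf2. It was found for 1.57% of all genes tested with a promoter and in 1.34% of all single promoters.

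Mitochondrially encoded genes fell, while nuclear genes of the same complexes had no direction that held under every setting. Of the 13 mitochondrial mRNAs, 12 were called lower and 0 higher, with a median of -1.06. mt-Cytb (complex III) was at 3054 and 2977 CPM in WT against 989 and 847 CPM in SDHA-KO (-1.72 ± 0.0788, adjusted p = 1.4e-08), and mt-Nd4l (complex I) fell furthest (-1.97). The exception was mt-Nd1, at 2124 and 1888 CPM against 1974 and 2250 CPM, whose groups overlapped (0.07 ± 0.0792, adjusted p = 0.54). Of 71 nuclear genes of complexes I, III, and IV and of ATP synthase, 18 were called lower and 6 higher, with a median of -0.06. Ndufv3 (-1.51) and Ndufb10 (0.66), both of complex I, stood at its ends. The balance of the nuclear list turned with the scaling, with 20 called higher and 3 lower when no composition normalization was used. With the sub-labels weighted equally, also without that normalization, 41 were called higher and 4 lower. Of 18 TCA cycle genes other than those of succinate dehydrogenase, 3 were called lower, among them Pcx (pyruvate carboxylase, which refills the cycle, -2.01), and 1 higher, Suclg2 (0.55), so that the called share of this list was below the 26.5% of all genes.

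Effector cytokine genes moved in both directions. Of 19 type 1 genes, 8 were called higher and 4 lower. Ifng, the interferon-γ gene, was at 28.5 and 34.4 CPM in WT against 431 and 211 CPM in SDHA-KO (3.35 ± 0.419, adjusted p = 6.5e-05), whereas Lta (lymphotoxin α) was at 179 and 163 CPM against 50.1 and 75.1 CPM (-1.45) and Ltb at 428 and 406 CPM against 157 and 196 CPM (-1.24). Both SDHA-KO libraries lay above both WT libraries for Ifng and below both for Lta and Ltb. Among 12 type 2 genes 5 were called higher and 0 lower, with Gata3, the lineage factor of type 2 cells, at 54.1 and 64.0 CPM against 188 and 98.4 CPM (1.27 ± 0.213, adjusted p = 0.00068) and Csf2 (GM-CSF) at 2.64 and 3.08 CPM against 40.9 and 18.4 CPM (3.36 ± 0.373, adjusted p = 3.7e-05). Il13 was at 14.2 and 0.660 CPM against 122 and 8.89 CPM, so that the groups overlapped, and its call was lost in all but 2 of the 8 fits that left out a library. Of 13 type 17 genes, 8 were called higher and 3 lower, with a median of 2.40. Without Tem7 cells 5 of 12 were called higher and 3 lower (median 1.20), and limma on mean log values per cell called 0 of 13. Il17a had 0 UMIs in both WT libraries and 2908 and 553 UMIs in SDHA-KO, a level at least 795-fold higher than the 3 UMIs over the WT group that a count of 0 allows (at least 1487-fold in SDHA-KO replicate 1 alone and at least 231-fold in replicate 2 alone), and the list's median was the same with Il17a set to that bound. Il2, the T cell growth factor, was at 112 and 91.0 CPM in WT and 61.3 and 80.8 CPM in SDHA-KO (-0.51, adjusted p = 0.014), which did not pass once the first WT or the first SDHA-KO library was removed (adjusted p = 0.15 and 0.10).

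Most of the SDHA-KO UMIs of Ifng, Il17a, Il22, Gzma, Il13, and Csf2 lay in few cells. Ifng had 454 and 625 UMIs in WT and 10976 and 6597 in SDHA-KO, of which the richest 1% of cells held 54.6% and 51.4% in WT (4 cells each) and 82.9% and 74.4% in SDHA-KO (10 and 11 cells), and a single SDHA-KO cell held 3348. The share of cells with at least 1 Ifng UMI was 44.2% and 51.2% in WT and 59.2% and 33.7% in SDHA-KO, and after each cell was thinned to 5000 UMIs it was 11.1% and 7.73% against 20.5% and 10.6%. The SDHA-KO replicates thus lay on both sides of the WT replicates in the unthinned share. On mean log values per cell, where 1 cell cannot dominate a library, limma gave Ifng a difference of 0.14 with an adjusted p of 0.15. These values are natural logs averaged over cells, so 0.14 is not on the scale of the log2 differences given here. Il17a lay in 47 and 8 SDHA-KO cells, and the richest 1% held 98.6% and 100% of its UMIs. Gzma, the granzyme A gene, was at 1.13 and 0.440 CPM in WT against 158 and 7.84 CPM in SDHA-KO (6.73 ± 1.22, adjusted p = 0.0012), with 95.0% and 95.1% of its SDHA-KO UMIs in the richest 1% of cells. In cells with a Cd4 UMI and none of Cd8a, Cd8b1, or Trdc, the log2 difference of Gzma was 1.37 with an adjusted p of 0.29, while Ifng kept its call (3.003, adjusted p = 0.0019). By contrast the richest 1% of SDHA-KO cells held 8.95% and 8.58% of the UMIs of Tnip3 and 13.9% and 10.9% of those of Serpine2. More than 50% of a gene's UMIs lay in the richest 1% of cells in both SDHA-KO libraries for 114 of the 1709 genes called higher, 175 of the 1818 called lower, and 1521 of all 13323.

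**Figure D2:**
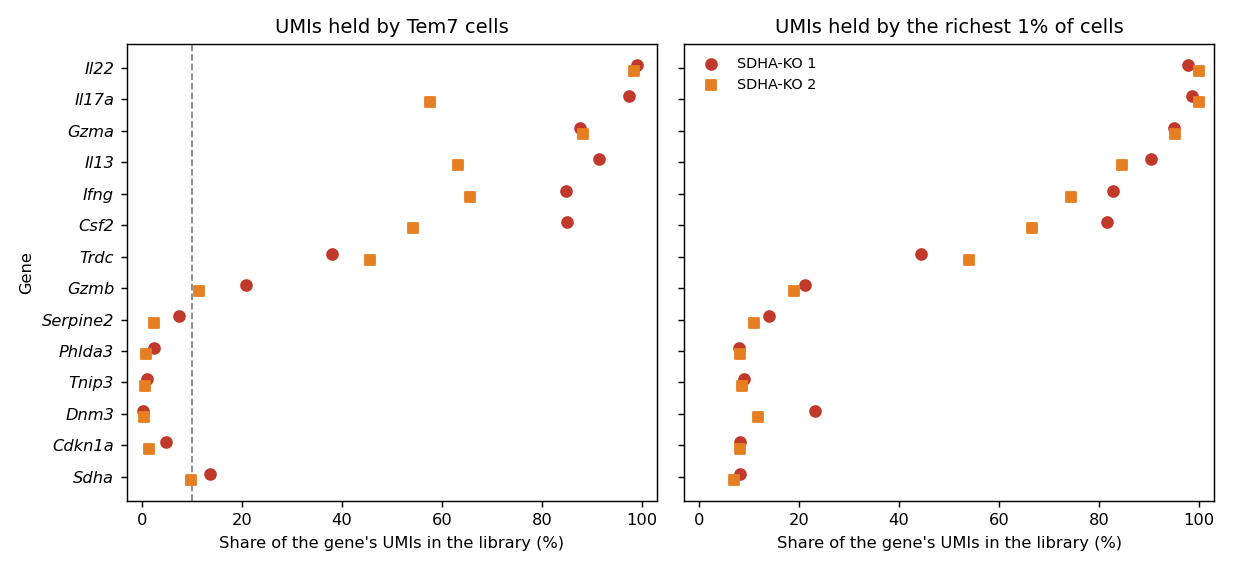
Share of each gene's UMIs (%) in stimulated SDHA-KO CD4 Tem cells that lay in Tem7 cells (left, with a dashed line at 10% beside the 10.5% and 9.52% of cells that Tem7 made up) and in the 1% of cells richest in that gene (right), with 1 point per SDHA-KO library. Il22, Il17a, Gzma, Il13, Ifng, and Csf2 lie above 50% in both panels, whereas Serpine2, Tnip3, and Dnm3 lie below 10% in the left panel.

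Surface receptors and memory genes shifted without a common direction. Of the marker genes, Cd4 was at 68.9 and 77.0 CPM in WT against 139 and 136 CPM in SDHA-KO (0.91 ± 0.0911, adjusted p = 9.4e-06), and Cd44 rose by 0.45, which did not pass with WT replicate 2 or SDHA-KO replicate 2 left out (adjusted p = 0.12 in each). Il2ra (0.08 ± 0.105, adjusted p = 0.60) and Tnfrsf4 (-0.26 ± 0.144, adjusted p = 0.22) did not pass the test. Of 17 memory and quiescence genes 6 were called higher and 3 lower. Il7r, the receptor of the survival cytokine IL-7, was at 23.4 and 28.9 CPM against 90.1 and 63.6 CPM (1.55 ± 0.163, adjusted p = 1.4e-05), Tcf7 (TCF-1) rose by 0.60 and Satb1 by 1.16, whereas Id3 fell by 1.02. Both SDHA-KO libraries lay on one side of both WT libraries for these genes. Ccr7 (0.32) did not pass, and Itga4 (the integrin α4) rose by 0.91. Of 14 costimulatory genes 5 were called higher, led by Tnfsf8 (CD30 ligand, 79.3 and 89.2 CPM against 230 and 230 CPM, 1.45), and 1 lower, Tnfrsf9 (4-1BB, 418 and 506 CPM against 304 and 263 CPM, -0.70). Of 13 inhibitory receptor genes 4 were called higher, led by Cd160 (1.40), and 1 lower, Ctla4 (-0.70). Cblb, a ubiquitin ligase that restrains TCR signaling, was at 380 and 372 CPM in WT against 714 and 781 CPM in SDHA-KO (0.99 ± 0.0894, adjusted p = 3.6e-06). Of 16 TCR signaling genes 4 were called higher and 1 lower. The counts of these lists stand beside 12.8% of all genes called higher and 13.6% called lower.

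Of 13 granule genes, 9 were called higher and 1 lower (median 1.05). Without Tem7 cells 8 were called higher and 0 lower with a median of 0.57, without WT replicate 1 or SDHA-KO replicate 1 the median was 0.57 or 0.56, and limma on mean log values per cell called 4 higher. Beside Gzma these included Serpinb9, which shields cells from granzyme B (42.4 and 47.8 CPM against 137 and 149 CPM, 1.67), and Nkg7, a granule membrane protein (84.4 and 78.5 CPM against 182 and 208 CPM, 1.26). Gzmb, the granzyme B gene, was at 327 and 519 CPM in WT against 624 and 492 CPM in SDHA-KO, with overlapping groups and no call (0.40, adjusted p = 0.23). Of 16 integrin and adhesion genes 7 were called higher and 2 lower, with Ly6c1, a surface antigen of activated and memory cells, at 12.8 and 19.9 CPM against 71.8 and 70.5 CPM (2.11). Of 13 S100 and cytoskeleton genes 9 were called higher and 2 lower, with S100a6 at 13.1 and 7.04 CPM against 64.8 and 43.1 CPM (2.44) and Anxa2 at 165 and 178 CPM against 81.0 and 65.2 CPM (-1.23). Of 26 interferon-stimulated genes 10 were called higher and 2 lower, with Bst2 (tetherin) at 139 and 147 CPM against 305 and 356 CPM (1.21) and Zbp1, a sensor of nucleic acids, at 39.1 and 35.3 CPM against 87.7 and 109 CPM (1.40).

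Several genes known to arrest the cell cycle or promote death rose, while the balance of genes of the cycle itself depended on the setting. Of 16 survival and death genes 7 were called higher and 0 lower. Bax, the pore-forming effector of mitochondrial apoptosis, was at 211 and 216 CPM in WT against 576 and 697 CPM in SDHA-KO (1.58 ± 0.0945, adjusted p = 8.9e-08), Pmaip1 (NOXA) rose by 1.62, and Fas, the death receptor, by 1.09. Cdkn1a, the p21 cell cycle inhibitor, was at 167 and 171 CPM against 361 and 417 CPM (1.20 ± 0.186, adjusted p = 0.00037), whereas Cdkn1b (p27) fell by 1.01. Bax, Pmaip1, Fas, Cdkn1a, and Phlda3 are all known p53 targets, but no list of p53 targets was counted, so no statement is made on such targets as a group. Of 23 S phase genes 2 were called higher and 1 lower, and of 22 G2M genes 0 were called higher and 7 lower, with Bub1, a mitotic checkpoint kinase, furthest down (-0.61). The G2M count turned to 4 higher and 1 lower without composition normalization. With the sub-labels weighted equally, also without that normalization, 12 G2M and 11 S phase genes were called higher and 0 lower. Within Tem1 and within Tem2, 7 G2M genes were called higher, with 1 and 0 lower. Mki67, the proliferation marker, was at 196 and 203 CPM in WT against 211 and 161 CPM in SDHA-KO (-0.10, adjusted p = 0.60). Of 21 Myc and ribosome biogenesis genes 5 were called higher and 2 lower, with Npm1 (nucleophosmin) at 5868 and 5488 CPM against 2727 and 2808 CPM (-1.04) and Myc at 100.1 and 120 CPM against 105 and 118 CPM (0.02, adjusted p = 0.94). This list also turned with the setting, with 11 called higher and 1 lower without composition normalization. Within sub-labels it ranged from 3 higher and 2 lower in Tem2 to 15 higher and 1 lower in Tem5. In the remaining lists, set beside 12.8% of all genes called higher and 13.6% lower, the called genes were 8 higher and 5 lower of 23 early response transcription factors, 4 higher and 1 lower of 15 genes of the IL-2 axis, 1 higher and 2 lower of 10 follicular helper genes, 3 higher and 1 lower of 10 chemokine receptors, 4 higher and 3 lower of 10 G1 genes, and 3 higher and 5 lower of 17 metallothioneins and antioxidant genes.

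The annotation splits these cells into 6 numbered sub-labels, whose leading genes are given as a description of how they were drawn. Tem1 was led by genes of mitosis and DNA repair such as Neil3, Nusap1, and Esco2. Tem2 was led by Ube2e2, Plxnc1, and Pkp4. Tem3 was led by Xcl1, a chemokine, and Il2. Tem4 was led, on the mean over the libraries, by Mt2, Dnm3, and Lif, a cytokine of the IL-6 family. Mt2 there was at 85.9 and 428 CPM in WT but 2.70 and 10.0 CPM in SDHA-KO, with 29.9% of its UMIs in 1 cell. Dnm3 went the other way, at 4.44 and 5.62 CPM in WT against 112 and 113 CPM in SDHA-KO. Tem5 was led by the immunoglobulin genes Iglc2 and Ighm, of which 1 cell held 99.97% and 71.5% of the UMIs in Tem5, and then by Ung and Ly6c1. Tem7 was led by Il22, Zbtb16, and Il17a, genes known from type 17 and innate-like T cells, each found in only 18 or 19 Tem7 cells, with 34.8% to 43.8% of its UMIs in 1 cell. Il17a was at 0 in both WT libraries there, while Zbtb16 was highest in WT replicate 1 (270 CPM).

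The SDHA-KO Tem cells held more Tem5 and fewer Tem2 and Tem3 cells. Tem5 made up 15.8% ± 1.53 (SD, n = 2) of WT and 38.1% ± 3.97 (n = 2) of SDHA-KO Tem cells. Tem3 made up 28.4% ± 1.09 and 10.4% ± 4.57, Tem2 22.2% ± 4.91 and 9.25% ± 3.19, and Tem4 5.14% ± 1.07 and 11.4% ± 3.08. The WT and SDHA-KO libraries did not overlap in these 4 shares. They overlapped for Tem1 (19.2% ± 5.03 and 20.7% ± 6.14) and for Tem7 (9.19% ± 1.62 and 10.0% ± 0.722). Depth moved with the genotype inside each sub-label, with WT cells deeper in Tem1 to Tem5 and SDHA-KO cells deeper in Tem7. In Tem5 cells the median was 43432 and 47194 UMIs in WT and 23462 and 22156 UMIs in SDHA-KO, and in Tem7 cells it was 9199 and 6342 UMIs in WT and 10368 and 10046 UMIs in SDHA-KO. Because genes that differed between the genotypes, such as Dnm3, Mt1, and Ly6c1, also lead sub-labels, the shares are not independent of the expression differences.

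**Figure D3:**
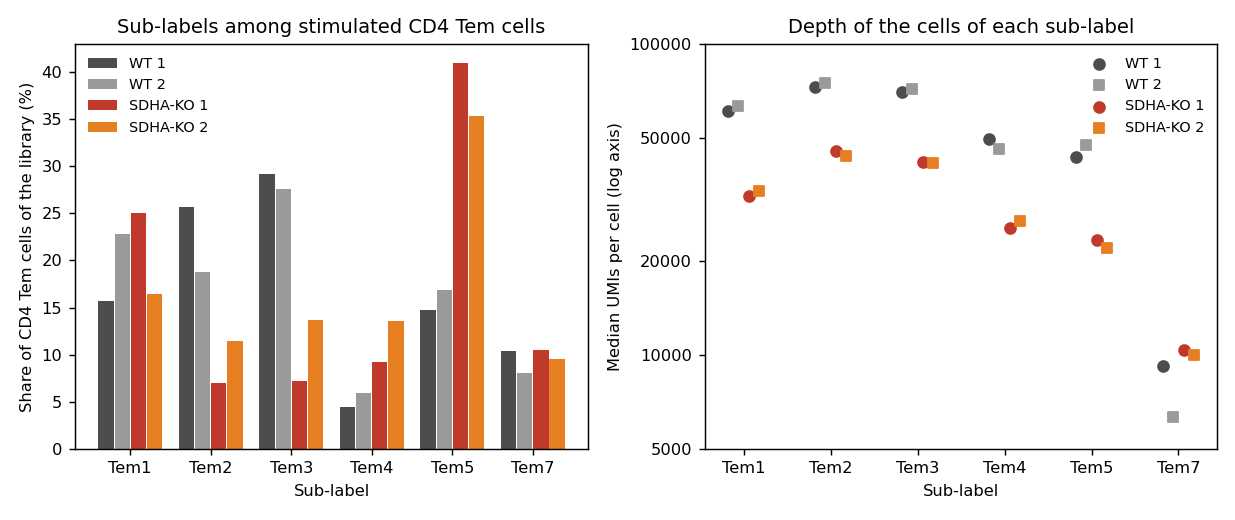
Left, the share (%) of the stimulated CD4 Tem cells of each library that carried each sub-label, and right, the median UMIs per cell (log axis) of those cells, with 1 bar or point for each of the 2 WT and 2 SDHA-KO libraries. Tem5 is the tallest SDHA-KO bar (40.9% and 35.3%), WT cells are deeper than SDHA-KO cells in Tem1 to Tem5, and Tem7 is the shallowest sub-label in all 4 libraries.

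Within Tem1, Tem2, Tem3, and Tem5 the glycolysis, glucose transport, HIF-1, sterol, and integrated stress response lists fell, and less so in Tem7. Amino acid transporters were called lower in Tem2 and in Tem3 but in neither Tem1 nor Tem5. Where each library held at least 30 cells the comparison was tested, and 3080 of 11078 genes (27.8%) were called in Tem1, 2619 of 10918 (24%) in Tem2, 2534 of 11024 (23%) in Tem3, 3054 of 10783 (28.3%) in Tem5, and 697 of 8233 (8.47%) in Tem7. Tem4, with 14 and 22 WT cells, was not tested. Of 10286 genes tested in all of Tem1, Tem2, Tem3, and Tem5, 296 were called higher in all 4, 596 were called lower in all 4, and 83 were called in opposite directions. Glycolysis genes called lower numbered 16 in Tem1 and 15 in each of Tem2, Tem3, and Tem5, of 17. HIF-1 genes called lower numbered 15 of 17 in each of them, and sterol and fatty acid genes between 24 and 26 of 26. In Tem7 they numbered 6 of 16 for glycolysis, 10 of 16 for HIF-1, 1 of 26 for sterol and fatty acid genes, and 1 of 9 for the integrated stress response, and the serine and one-carbon list had a median of 0.58. For Tem1, Tem2, Tem3, and Tem5 all of these shares exceed the percentage of all genes called in the same sub-label. In Tem7 the shares of the glycolysis, HIF-1, and integrated stress response lists exceed its 8.47%, and that of the sterol list does not. The Tem7 sums held 502936 and 287548 UMIs in WT and 1562389 and 1459159 in SDHA-KO, fewer than any other tested sub-label of the same library. Cdkn1a was an exception in Tem5, the sub-label that made up the largest part of SDHA-KO cells. It was at 138 and 149 CPM in WT against 439 and 460 CPM in SDHA-KO Tem1 cells (1.64 ± 0.0832, adjusted p = 6.4e-07), but at 89.97 and 103.4 CPM against 107 and 131 CPM in Tem5 cells (0.30 ± 0.128, adjusted p = 0.12). Whether the effect differed between Tem1 and Tem5 was not tested. Bax rose in both, by 1.73 in Tem1 and by 1.25 in Tem5.

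**Figure D4:**
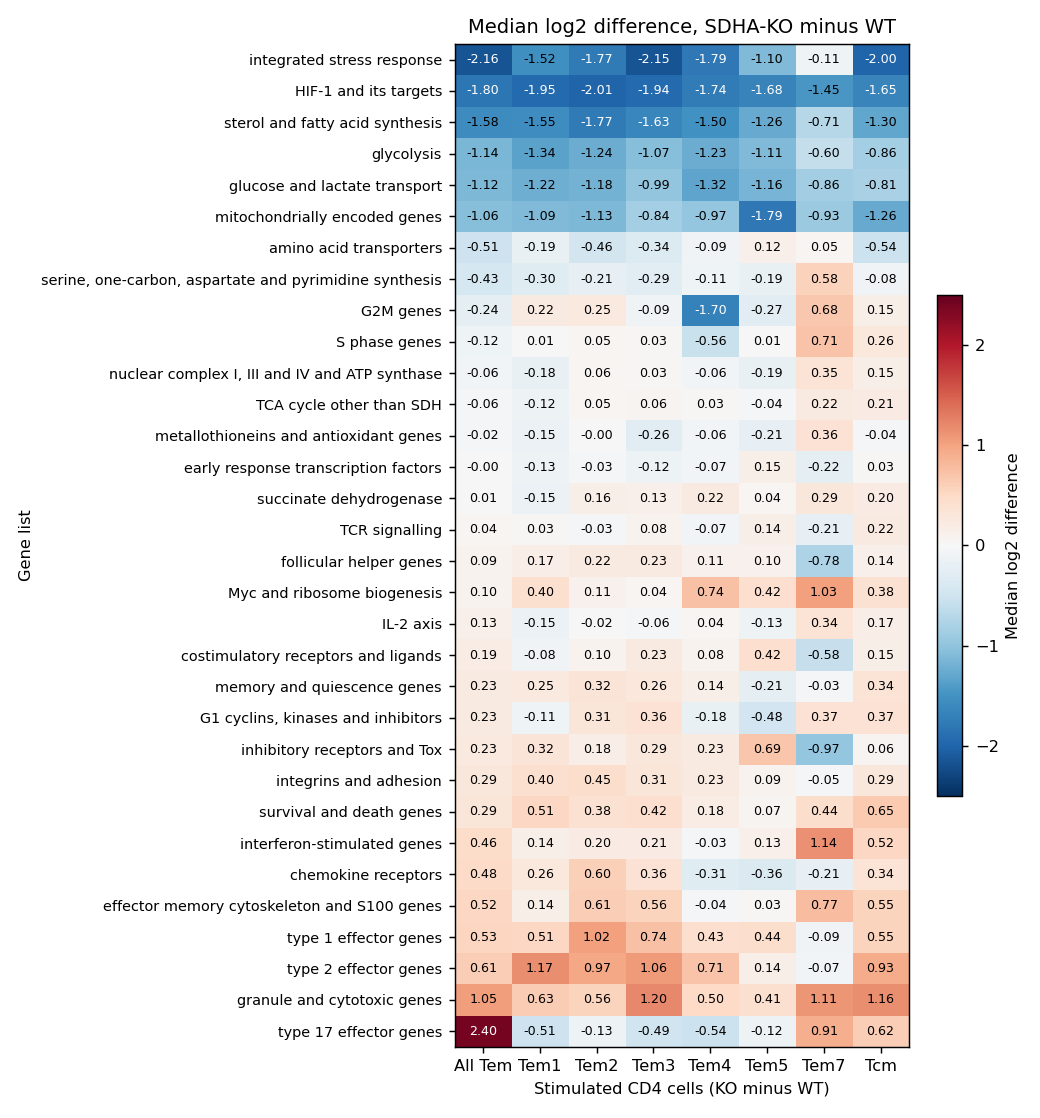
Median log2 difference (SDHA-KO minus WT) of each gene list (rows) in all stimulated CD4 Tem cells, in each of the 6 sub-labels, and in stimulated CD4 Tcm cells (columns), with blue for lower and red for higher in SDHA-KO. The integrated stress response, HIF-1, sterol, glycolysis, and glucose transport lists are blue in Tem1 to Tem5 and paler in Tem7 (-0.11 for the integrated stress response), the mitochondrially encoded list is blue in all 6 sub-labels, while the type 17 list is at 2.40 in all Tem cells but between -0.54 and -0.12 in Tem1 to Tem5, where only 5 or 6 of its 13 genes passed the filter on low counts.

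Tem7 was the one sub-label in which Sdha was tested and not called. Sdha in Tem7 was at 88.3 and 71.9 CPM in WT against 63.0 and 58.6 CPM in SDHA-KO, a log2 difference of -0.42 ± 0.234 that was not called (adjusted p = 0.27), while in Tem1, Tem2, Tem3, and Tem5 it lay between -1.89 and -1.63. The genotype effect of Tem7 was set against that of the other Tem cells of the same libraries with the library as a block, a comparison chosen after seeing the data, and limited by the fact that sub-labels were drawn from the same genes. Of 12973 genes, 957 (7.38%) were called for this difference. Sdha was among them (1.45 ± 0.276, adjusted p = 0.0023), as were Pgk1 (1.13, adjusted p = 0.0010), Asns (1.72, adjusted p = 0.0088), and mt-Cytb (1.45, adjusted p = 5.8e-05), all less lowered in Tem7, and Tnip3 (-4.44, adjusted p = 0.00012), less raised. By list, 10 of 17 glycolysis genes were called less lowered and 1, Ldhb, which rose elsewhere, in the other direction (-1.59). Of 26 sterol genes 7 were called, all less lowered, and of 15 integrated stress response genes 3. Only 3 of 13 mitochondrially encoded genes were called, mt-Cytb among them, with a median difference of 0.02 against 0.07 for all genes. Other lists also had called genes with the higher value in Tem7 and 0 with the lower. These were 11 of 22 G2M genes, 9 of 21 Myc and ribosome biogenesis genes, 6 of 23 S phase genes, and 12 of 71 nuclear genes of the mitochondrial complexes. Of all genes, 4.45% were called with the higher value.

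HIF-1 targets did not share this pattern throughout. Of 17 HIF-1 genes 4 were called less lowered in Tem7 (Bnip3, Ankrd37, P4ha2, and Higd1a) and 1, Hif1a, in the other direction. Egln3 in Tem7 was at 224 and 183 CPM in WT against 26.2 and 17.7 CPM in SDHA-KO (-3.22 ± 0.256, adjusted p = 0.0011), and the difference from the other Tem cells was -0.13 ± 0.285. Slc2a3 was at 265 and 173 CPM against 34.1 and 19.1 CPM (-3.06 ± 0.310, adjusted p = 0.0024), with a difference of -0.07 ± 0.299. For both genes the fall in Tem7 and that in the other Tem cells thus differed by less than the standard error. Hif1a was at 559 and 640 CPM in WT against 559 and 438 CPM in SDHA-KO Tem7 cells (-0.26, adjusted p = 0.39).

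Tem7 also held most of the Ifng UMIs and, in SDHA-KO cells, most of those of Il17a, Il22, Il13, and Csf2, but 13.6% or less of those of Il2 in any library. It took 84.7% and 65.7% of the Ifng UMIs of SDHA-KO Tem cells and 62.1% and 52.0% of those of WT, from 10.5%, 9.52%, 10.3%, and 8.04% of the cells. Ifng in Tem7 was at 553 and 1169 CPM in WT against 6099 and 3060 CPM in SDHA-KO (2.43 ± 0.369, adjusted p = 0.0080), and its genotype effect did not differ detectably from that in the other Tem cells (0.08 ± 0.274, adjusted p = 0.91). Without Tem7 the log2 difference of Ifng over all Tem cells was 2.37 (adjusted p = 0.00023). The γδ T cell genes summed to 95.4 and 386 CPM in WT and 165 and 162 CPM in SDHA-KO Tem7 cells, and without Tem7 to 2.06 and 1.41 CPM in WT and 13.5 and 8.598 CPM in SDHA-KO. The NK and innate-like genes summed to 274 and 52.2 CPM in WT and 306 and 158 CPM in SDHA-KO Tem7 cells, and without Tem7 to 0.5002 and 0.281 CPM against 2.48 and 1.37 CPM. The regulatory T cell genes summed to 461 and 960 CPM in WT and 228 and 345 CPM in SDHA-KO Tem7 cells. B cell genes reached 572 CPM in Tem7 of SDHA-KO replicate 1 and lay between 65.6 and 78.8 CPM in the other 3 libraries. The part of these markers in the differences within Tem7 was not tested.

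The knockout effect in stimulated cells was compared with that in unstimulated CD4 Tem cells, of which there were 86 and 79 in WT and 67 and 91 in SDHA-KO. There 368 of 13323 genes (2.76%) were called for SDHA-KO against WT, and 684 (5.13%) were called for the difference between the states. Sdha was at 91.9 and 75.7 CPM in unstimulated WT and at 73.5 and 68.7 CPM in unstimulated SDHA-KO cells (-0.24, adjusted p = 0.59), and its difference between states was -1.46 ± 0.192 (adjusted p = 0.00068). Slc2a3 was at 17.5 and 28.9 CPM against 38.5 and 31.5 CPM (difference between states -3.52 ± 0.347, adjusted p = 9.6e-05). Hmgcs1 was at 8.75 and 12.4 CPM against 29.4 and 27.7 CPM, so that it was called higher in unstimulated SDHA-KO cells (1.42, adjusted p = 0.021) and lower in stimulated ones (difference -3.68 ± 0.300, adjusted p = 3.3e-05). Bax was at 117 and 120 CPM against 119 and 125 CPM (0.05), with a difference between states of 1.53 ± 0.178 (adjusted p = 0.00024). For the difference between states, 14 of 26 sterol genes, 10 of 13 mitochondrially encoded genes, 9 of 17 glycolysis genes, 6 of 17 HIF-1 genes, and 2 of 15 integrated stress response genes were called with the lower value after stimulation, and Ldhb (2.87) and Hif1a (1.48) with the higher. The unstimulated cells were few, and leaving out 1 library moved the count of called genes from 684 to between 217 and 792, namely 257 and 217 without the first and the second unstimulated WT library, 397 and 347 without those of SDHA-KO, and 415 and 403 without the first and the second stimulated WT library.

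The effect was last compared with that in CD4 Tcm cells of the same libraries (540 and 594 in WT, 236 and 223 in SDHA-KO), with the library as a block. Of 14044 genes, 654 (4.66%) were called for the difference of effects, 230 (1.64%) with the higher and 424 (3.02%) with the lower value in Tem. Levels here come from the joint scaling of Tem and Tcm sums. Sdha was at 107 and 105 CPM in WT against 33.2 and 32.7 CPM in SDHA-KO Tem cells, and at 72.8 and 72.4 CPM against 37.5 and 48.4 CPM in Tcm cells, a larger fall in Tem (difference -0.92 ± 0.140, adjusted p = 0.0046). The log2 difference of Pgk1 was -1.76 in Tem and -1.11 in Tcm (difference -0.65, adjusted p = 0.00051), while that of Egln3 was -3.05 and -2.92 (difference -0.13 ± 0.137, adjusted p = 0.68). Of 17 glycolysis genes 7 were called with the lower value in Tem, of 26 sterol genes 4, and of 13 mitochondrially encoded genes 1, while 7 of the 13 were called with the higher value in Tem.

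The genes with the largest difference of effects were of several kinds. Cd83, an activation marker, was at 28.2 and 28.8 CPM in WT against 38.8 and 44.9 CPM in SDHA-KO Tem cells, and at 23.6 and 22.1 CPM against 99.8 and 76.8 CPM in Tcm cells (difference -1.40 ± 0.186, adjusted p = 0.0024). Marcks, a regulator of the actin cortex, and Lad1 rose less in Tem as well (-1.26 and -1.25). The uncharacterized genes Gm13822 (-2.74 ± 0.250, adjusted p = 0.00022) and 1700034P13Rik (-2.14 ± 0.168) were lower in SDHA-KO Tem and higher in SDHA-KO Tcm cells. In the other direction, Lars2, the mitochondrial leucyl-tRNA synthetase, was at 278 and 288 CPM in WT against 263 and 264 CPM in SDHA-KO Tem cells, and at 1067 and 1324 CPM against 313 and 311 CPM in Tcm cells (1.83 ± 0.0884, adjusted p = 1.2e-06). Cmss1 (1.76), Gm19951 (1.67), and Gm42418 (1.48) showed the same pattern, highest in WT Tcm cells. Gm42418 overlaps a ribosomal RNA repeat, and its counts are uncertain for that reason. Whether the counts of Lars2, Cmss1, and Gm19951, which moved with it, are uncertain too was not tested. Ifng was at 34.3 and 41.04 CPM against 516 and 258 CPM in Tem cells and at 52.6 and 100 CPM against 284 and 94.1 CPM in Tcm cells (2.10 ± 0.206, adjusted p = 0.00037), a difference that was not called without Tem7 (1.18, adjusted p = 0.14). The Tcm cells had a share of mitochondrial UMIs several times that of Tem cells, and in cells under 10% mitochondrial UMIs the count of called genes was 1397 in place of 654. It was 1036 without SDHA-KO replicate 2, 384 without the filter on low counts, and 284 when Tem and Tcm cells were thinned to 5000 UMIs.

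**Figure D5:**
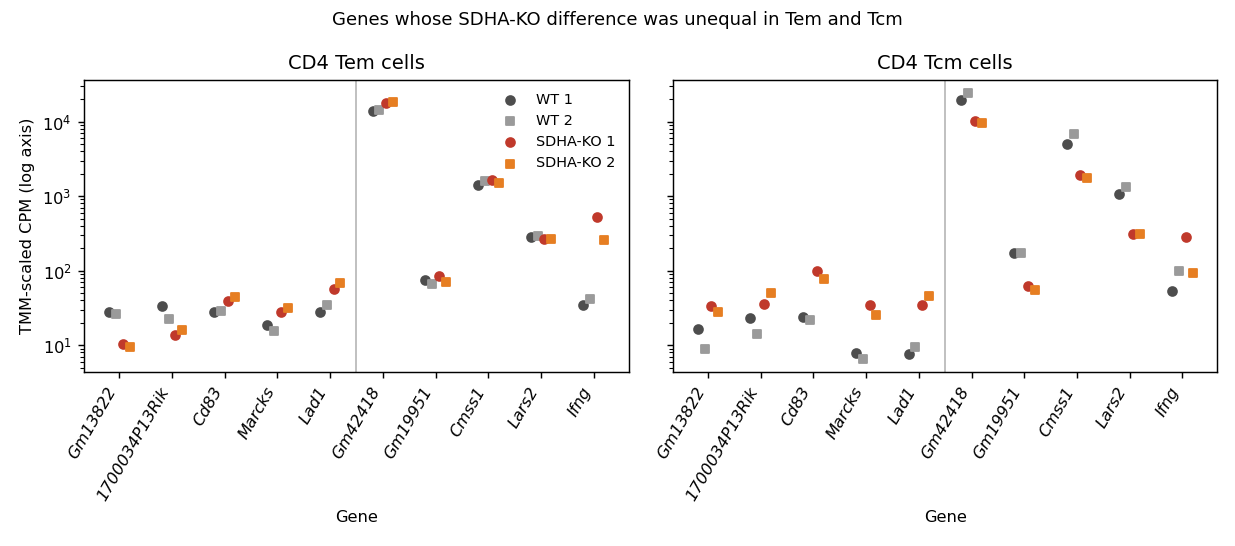
TMM-scaled counts-per-million values (CPM) (log axis) of the 10 genes with the largest difference of the SDHA-KO effect between stimulated CD4 Tem (left panel) and CD4 Tcm cells (right panel), with 1 point for each of the 2 WT and 2 SDHA-KO libraries. Genes left of the grey line have the lower effect in Tem, and the 5 genes right of it the higher, as for Lars2, where the 4 libraries are level in Tem cells (263 to 288 CPM) and the WT libraries stand above the SDHA-KO libraries in Tcm cells.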

How the data were processed

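Per the labels, libraries were made with the 10x Genomics 3′ kit, and the submitters' processing notes name bcl2fastq, Cell Ranger, and mm10, with versions not given in the sources used here. The authors deposited 1 table of raw UMI counts (20170 genes by 12846 cells) after their own cell filters, and a cell table with each cell's library, class, and sub-label. The cell table also holds totals and genes per cell and, as deposited by the authors, the percent of each cell's UMIs from mitochondrially encoded genes, all of which matched the count table (0 cells differed). Those filters removed cells above a cap on detected genes, set higher for stimulated cells, and clusters without Cd3 genes. No doublet caller is named in the sources used here, and no cells were removed.

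Counts were summed per library over CD4 Tem cells and tested with edgeR 4.0.16 (R 4.3.3; quasi-likelihood test, filterByExpr with a minimum count of 10 and total of 15, TMM, Benjamini-Hochberg adjusted p under 0.05). All 8 Tem libraries entered 1 fit of 4 groups, with 4 residual degrees of freedom. Errors are standard errors. Tem was compared with Tcm, and Tem7 with the other Tem cells, by an interaction with the library as a block. limma 3.58.1 and DESeq2 1.42.0 gave alternatives. The edgeR tests of SDHA-KO against WT in stimulated Tem cells and of the difference between Tem and Tcm were run on simulated data first. The other fits were not. The setting with sub-labels weighted equally averaged their CPM without composition normalization, added 1 before the log, and used limma. A gene of 20 CPM had 370 UMIs in the smallest library, a counting error of 5.20%. The replicates differed beyond sampling noise (chi-square per degree of freedom 6.04 in WT and 13.1 in SDHA-KO).

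Named genes were the Tem markers and subset genes, the 8 largest called falls and rises, the 5 largest differences between Tem and Tcm in each direction, the 5 leading genes of each sub-label, and members of 32 gene lists, none with UMIs in fewer than 10 cells, except defining markers of other cell types named for being at or near 0. The members and lists were chosen with earlier results of these data known. Thinning Tcm cells, leaving out Tem7, and comparing it with the other Tem cells were added after seeing the data. Promoter motifs were searched on both strands of RefSeq promoters, and a gene was counted when any of its promoters held the motif. Of the 26 sterol genes 17 had a promoter.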

Additional observations from a re-analysis of the deposited data

Results flagged for a closer look

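The SDHA-KO effect in stimulated CD4 Tem cells differed from that in unstimulated CD4 Tem cells for 684 genes and from that in stimulated CD4 Tcm cells for 654 genes, by edgeR's test of the difference itself. Between Tem and Tcm cells the largest differences (log2, Tem minus Tcm) among genes of at least 20 CPM were -2.74 for Gm13822, -2.14 for 1700034P13Rik, -1.40 for Cd83, -1.26 for Marcks, and -1.25 for Lad1 in one direction. In the other direction they were 2.10 for Ifng, 1.83 for Lars2, 1.76 for Cmss1, 1.67 for Gm19951, and 1.48 for Gm42418.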

How the results depend on the processing

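The count of 3527 genes called in stimulated Tem cells lay between 1528 and 3677 when 1 library was left out. It was 1608 of 8933 genes tested with cells thinned to 5000 UMIs. Of 13323 genes, limma on mean log values per cell called 1165, and 1114 passed with a 2-fold change required. The number of genes tested also moved with the setting. It lay between 9256 and 14594 when 1 library was left out, so these counts are not shares of the same set of genes. The 684 calls of the difference between states ranged from 217 to 792 when 1 library was left out, with 1149 without the filter on low counts and 448 at 2-fold. The 654 calls of the difference between Tem and Tcm ranged from 557 to 1036, with 384 without the filter, 1397 in cells under 10% mitochondrial UMIs, 94 at 2-fold, and 284 with Tem and Tcm cells thinned to 5000 UMIs. A replicate block gave 3275 calls in stimulated cells and 581 for the difference between states, but same-numbered samples did not deviate together (correlations of -0.182 and -0.017 over 4001 genes), so they share only a number. DESeq2 gave 3327, 971, and 565 calls, of 14071, 11450, and 4756 genes tested. For the difference between Tem and Tcm, 14044 genes were tested in the main fit, 10724 with thinned cells, and 19502 without the filter.

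Signs turned for few named genes. With sub-labels weighted equally the SDHA-KO difference was -0.655 for Cmss1, -0.412 for Gm19951, -0.019 for Gm42418, 0.113 for Fasn, 0.081 for Il2, 0.315 for Mki67, and -0.036 for Trdc. With thinned cells it was -0.404 for Cmss1 and -0.398 for Gm19951. The difference between Tem and Tcm was -0.915 for mt-Cytb in cells under 10% mitochondrial UMIs and 0.018 for Ltb in thinned cells. The cause of these changes was not tested. With 2 libraries per group, differences near the spread between libraries were not detectable.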
